A study of Rattus norvegicus with 3 samples.

Results

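Lcn2, Lrg1, Steap4, Socs3, Il1r1, Il1b, Nfkbia, Icam1, Vcam1 and Selp, 10 acute phase and vascular inflammation genes, were followed in rat cerebellar cortex after a stroke of the cerebrum. They were chosen by earlier results of the same 3 arrays, so all values are descriptions and none was tested. Of 38973 genes and unmatched transcript accessions on the array, these 10 were found through probes whose transcript accession belongs to the gene's RefSeq symbol. The animals were male Wistar rats, 9 weeks old, in which the right middle cerebral artery was occluded for a time with a filament (MCAO), or the right carotid was only exposed (sham). At day 2 the cortex of the left cerebellar hemisphere (contralateral to the infarct) and of the right hemisphere (ipsilateral) was taken from rats with MCAO, and the left cortex from sham rats served as control. Each of the 3 groups was 1 array, hybridised with RNA of pooled tissue from 4 rats, and both MCAO pools came from the same animals. The pools give no spread between rats, the right hemisphere of sham rats was not measured, and only MCAO rats with a moderate neurological score had been kept. The study asked what happens in the cerebellar hemisphere opposite a cerebral infarct, where blood flow falls (crossed cerebellar diaschisis).

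In an acute phase response, interleukin 1 beta binds its receptor and frees the transcription factor NF-kB from its inhibitor IkB alpha, the product of Nfkbia, which NF-kB itself induces. Cytokines of the interleukin 6 family act in parallel through gp130 and STAT3, and SOCS3 is a feedback inhibitor of that pathway. Both routes act on target genes in liver, astrocytes and brain endothelium, among them Lcn2, Lrg1 and Steap4, and NF-kB also drives the endothelial adhesion molecules Icam1, Vcam1 and Selp, which leukocytes bind on their way out of the blood.

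Levels are log2 of the scanner's background-subtracted spot signal after each array was scaled by its 75th percentile, averaged over spots and then over probes. A level may be compared between arrays for 1 gene, not between genes, because each probe binds its target differently. A log2 ratio beyond 1 in size, the fold used in the study's methods, was counted as a difference. The error given after ± is the scanner's own error of a spot, which covers neither rats nor hybridisations. Well above background is the scanner software's flag for a spot clearly brighter than its surroundings. The flag was set for 72.3% of 58717 gene spots on the contralateral, 73.3% on the ipsilateral and 73.7% on the control array, the order in which sets of 3 values are given throughout. Before scaling, the 75th percentile of the signal was 2103, 1614 and 2336, so the ipsilateral array was the dimmest.

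A gene is called fully measured where each of its probes had that flag on each of the 3 arrays. Of the 10 genes, 8 were fully measured. Il1r1 reached that mark on the contralateral and control arrays and missed it on the ipsilateral array. Selp missed it on every array. No spot of any gene was saturated. Lrg1 was printed on 2 spots and Socs3 was measured by 2 probes, one on 10 spots and the other on 1, while each of the other genes had 1 probe on 1 spot.

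**Figure D1:**
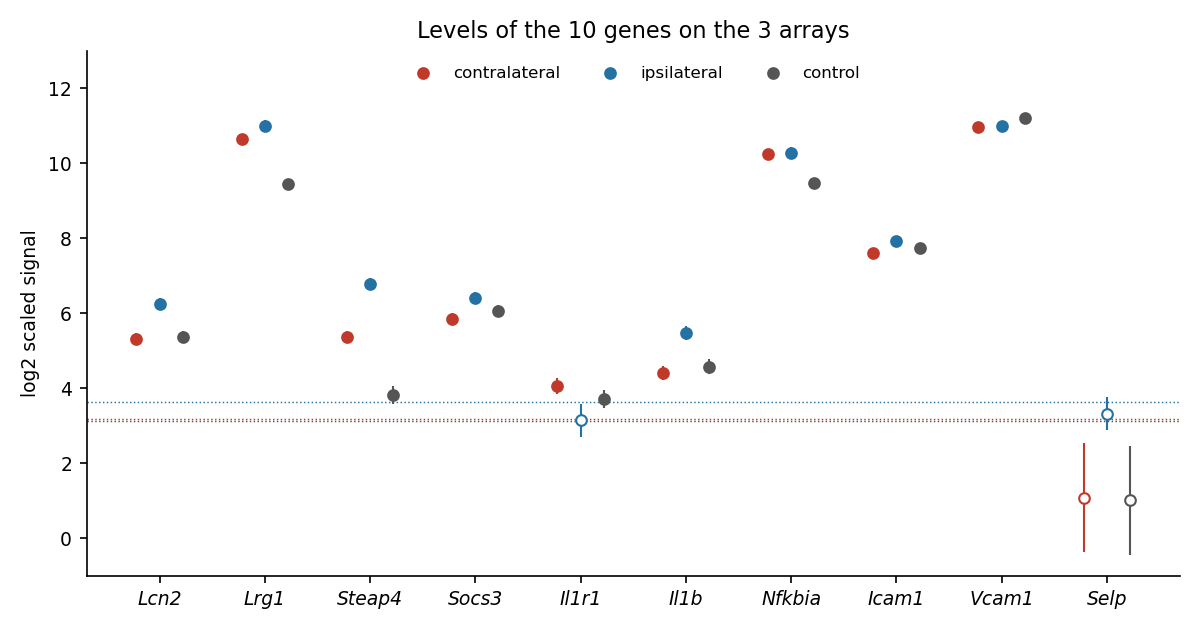
The vertical axis is the log2 scaled signal of each of the 10 genes on the contralateral (red), ipsilateral (blue) and control (grey) arrays, with bars for the scanner error, and each dotted line marks the lowest level well above background on the array of its colour (3.19, 3.63 and 3.12). Filled points were well above background and open points were not, and each point of Selp lies below the line of its own array.

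Lrg1 encodes a secreted leucine-rich glycoprotein that binds endoglin and alters TGF-beta signalling in vessels. Its level was 10.64 contralateral, 10.998 ipsilateral and 9.45 in control. Both MCAO arrays stood above the control array, and the ipsilateral array was the highest. The log2 ratio to control was 1.19 ± 0.20 (2.28-fold) on the contralateral side and 1.55 ± 0.20 (2.93-fold) on the ipsilateral side. The 2 spots of the probe lay close together, with an SD of 0.06, 0.11 and 0.04. The sides differed by -0.36 ± 0.20, contralateral over ipsilateral. That difference was 0.02 without scaling, where the unscaled signals were 1679 and 1655 against 818 in control.

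Steap4, a metalloreductase of the cell membrane that reduces iron and copper, had the largest ratios to control among the 8 fully measured genes. It read 5.36 contralateral, 6.78 ipsilateral and 3.82 in control. The order was ipsilateral, then contralateral, then control, and every step exceeded the scanner error. The log2 ratio to control was 1.54 ± 0.29 (2.90-fold) on the contralateral side and 2.96 ± 0.28 (7.77-fold) on the ipsilateral side, and contralateral over ipsilateral it was -1.42 ± 0.22. Of 22090 fully measured genes on the array, 4 had a larger ipsilateral ratio to control and 75 a larger contralateral one, while for Lrg1 these counts were 129 and 191. The control value rested on 1 spot with a signal of 16.6, where the dimmest spot flagged well above background on that array had 10.2. With 50 added to every scaled signal, which damps dim spots, the ratios of Steap4 to control were 0.50 and 1.32. Under normexp background correction they were 0.62 and 1.48. In both, the contralateral ratio to control no longer passed the threshold. Contralateral over ipsilateral, the ratio of Steap4 was -0.81 with 50 added, inside the threshold, and it also fell inside under normexp.

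Lcn2 encodes lipocalin 2, an iron-siderophore binding protein of neutrophils, astrocytes and endothelium. Its level was 5.31, 6.25 and 5.37. The ipsilateral array was high, and the other arrays were within the scanner error of each other. The ratio to control was -0.06 ± 0.22 on the contralateral side, with the opposite sign under normexp (0.06) and 0.00 with cyclic loess. It was 0.88 ± 0.22 on the ipsilateral side, short of the threshold, and 0.35 without scaling. These were dim spots, with unscaled signals of 41.9, 61.7 and 48.5. Negative control spots, which carry no rat sequence, showed a median ratio of 0.52 for ipsilateral over control and 0.06 for contralateral over control after the same scaling, and their part in the ratios of dim genes was not tested.

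Genes nearest to Lrg1 and Steap4 over both ratios to control were sought among 11254 fully measured genes with a symbol. For Lrg1 they were Gpnmb, a glycoprotein of macrophages, with ratios of 1.13 and 1.47 on the contralateral and ipsilateral side, Mogat3, an acyltransferase, with 1.15 and 1.66, and Ttc36 with 1.17 and 1.43. Their distances from Lrg1 were 0.10, 0.12 and 0.12 log2 units. Steap4 had no neighbour as close. The nearest were Or2d2, an olfactory receptor, at 0.69, Msmp at 0.84 and RT1-M4, an MHC class I gene, at 0.85. Distance was taken over 2 ratios that share the control array, so a low or high control value moves both.

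The DNA before the start of Lrg1, Steap4 and Vcam1 is shown because the first 2 of these genes had the largest ratios and Vcam1, described below with the adhesion molecules, had ratios below 0. Sequences are RefSeq's, build GRCr8, read 5′ to 3′ towards the gene, all on the minus strand. They are chr9:1036938-1037181 for Lrg1, chr4:27054770-27055019 for Steap4 and chr2:206742784-206743033 for Vcam1, each ending at the edge of the annotated gene. Capitals mark a match to the NF-kB consensus, and in Steap4 also the STAT motif TTCNNNGAA, the matches nearer the start standing further right.
Lrg1: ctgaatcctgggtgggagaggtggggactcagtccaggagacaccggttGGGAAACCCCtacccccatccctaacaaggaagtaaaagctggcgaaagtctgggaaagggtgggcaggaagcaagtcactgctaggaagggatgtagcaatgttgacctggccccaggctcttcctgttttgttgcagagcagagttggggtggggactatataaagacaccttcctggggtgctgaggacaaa
Steap4: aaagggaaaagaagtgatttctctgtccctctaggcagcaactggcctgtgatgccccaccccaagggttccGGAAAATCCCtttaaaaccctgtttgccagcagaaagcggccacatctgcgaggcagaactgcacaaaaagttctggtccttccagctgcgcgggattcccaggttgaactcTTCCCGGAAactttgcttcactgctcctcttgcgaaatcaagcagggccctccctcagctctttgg
Vcam1: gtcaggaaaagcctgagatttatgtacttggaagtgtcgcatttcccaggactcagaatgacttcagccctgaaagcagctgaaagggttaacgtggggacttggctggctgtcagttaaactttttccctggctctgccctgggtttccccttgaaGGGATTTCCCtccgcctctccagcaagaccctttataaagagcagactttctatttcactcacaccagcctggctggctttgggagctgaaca

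The NF-kB consensus was found on either strand in the 250 bases before the start of 7 of the 9 genes in the RefSeq promoter table, namely Lcn2, Lrg1, Steap4, Socs3, Il1r1, Nfkbia and Vcam1. Of all 33469 promoters in the table, 6.33% held it. The STAT motif, which reads the same on both strands, was found in Steap4 and Icam1 and in 7.67% of all promoters. The C/EBP motif TTGCGCAA was in none of the 9 and in 0.14% of all. The window of Socs3 and that of Il1r1 lay wholly inside the annotated gene, as did 235 of the 250 bases for Nfkbia, 157 for Icam1, 71 for Lcn2 and 6 for Lrg1. The matches of Socs3, Il1r1, Nfkbia and Icam1 therefore lie inside the annotated gene. Genes with a match included Steap4, with the largest ratios, and Vcam1, with ratios below 0, and a match of letters is not evidence that a factor binds.

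Il1b encodes interleukin 1 beta, the cytokine at the head of this response. It read 4.41, 5.46 and 4.57. As with Lcn2, the ipsilateral array was high and the others did not differ beyond the scanner error. The ratios were -0.16 ± 0.28 for contralateral over control, 0.89 ± 0.27 for ipsilateral over control and -1.06 ± 0.27 for contralateral over ipsilateral, the last beyond the threshold. That last ratio fell inside the threshold without scaling (-0.67), with scaling to spike-in probes (-0.88), with quantile normalization (-0.83), with cyclic loess (-0.85), with normexp (-0.58) and with 50 added (-0.40). The contralateral ratio to control had the opposite sign under normexp (0.02), and the ipsilateral one was 0.36 without scaling. Unscaled signals were 22.4, 35.7 and 27.9.

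Il1r1, the signalling receptor for interleukin 1, was 4.06 on the contralateral and 3.72 on the control array, a ratio of 0.34 ± 0.33. On the ipsilateral array its spot, at 3.15, was not well above background, which leaves only a bound. The bound sets the bright array against the lowest level well above background on the dim array, or against the dim spot itself where that is higher. By it, Il1r1 was 1.35-fold higher on the contralateral than on the ipsilateral array, and 1.06-fold higher on the control array. In log2 these bounds are 0.43 and 0.086, beside a scanner error of the bright spot of 0.217 and 0.245. Neither bound allows for that error, and the second lies within it. Under normexp these orders turned, with a ratio of -0.03 for contralateral over ipsilateral and 0.37 for ipsilateral over control.

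Nfkbia, the inhibitor that holds NF-kB in the cytoplasm, was 10.24, 10.28 and 9.47. Both MCAO arrays were above the control array. Its ratios to control were 0.77 ± 0.20 (1.71-fold) and 0.82 ± 0.20 (1.76-fold) on the contralateral and ipsilateral side, short of the threshold and beyond the scanner error, and the ipsilateral ratio was 0.28 without scaling. The sides differed by -0.04 ± 0.20, which was 0.34 without scaling and 0.13 with spike-in scaling. Fully measured genes with a mean level from 8 to 10, where Nfkbia lies near the upper end, had ratios to control with an interquartile range of 0.21 contralateral and 0.23 ipsilateral. At mean levels from 4 to 6, where Lcn2, Steap4 and Il1b lie, that range was 0.55 contralateral and 0.68 ipsilateral.

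Socs3, the feedback inhibitor of gp130 and STAT3 signalling, was 5.84, 6.40 and 6.06 as the mean of its probes. Its ratio to control was -0.22 ± 0.23 on the contralateral side. On the ipsilateral side it was 0.33 ± 0.22, and -0.20 without scaling. The probes differed in the first of these. The probe on 10 spots, of which 8 were used, read 6.77, 7.18 and 6.76 with an SD over spots of 0.08, 0.05 and 0.03, a contralateral ratio of 0.02 ± 0.21 and an ipsilateral ratio of 0.43 ± 0.21. The probe on 1 spot read 4.91, 5.61 and 5.37, with ratios of -0.46 ± 0.25 and 0.24 ± 0.24. In both probes the ipsilateral array was the highest.

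Icam1, the endothelial ligand of leukocyte beta-2 integrins, was 7.60, 7.92 and 7.73. Neither ratio to control exceeded the scanner error, at -0.13 ± 0.21 contralateral and 0.19 ± 0.21 ipsilateral, the latter turning to -0.34 without scaling and -0.06 with spike-in scaling. Vcam1, the ligand of the integrin alpha 4 beta 1, was 10.96, 10.99 and 11.21. The control array was the highest for this gene. Its ratios to control were -0.25 ± 0.20 and -0.22 ± 0.20 on the contralateral and ipsilateral side, and they were below 0 under all 12 alternatives tried, the ipsilateral one -0.76 without scaling.

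Selp encodes P-selectin, on which leukocytes roll along activated endothelium. Its spot was not well above background on any array, with unscaled signals of 2.23, 8.07 and 2.37. No fold is given for it. Negative control spots had median signals of 2.29, 2.41 and 2.45.

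**Figure D2:**
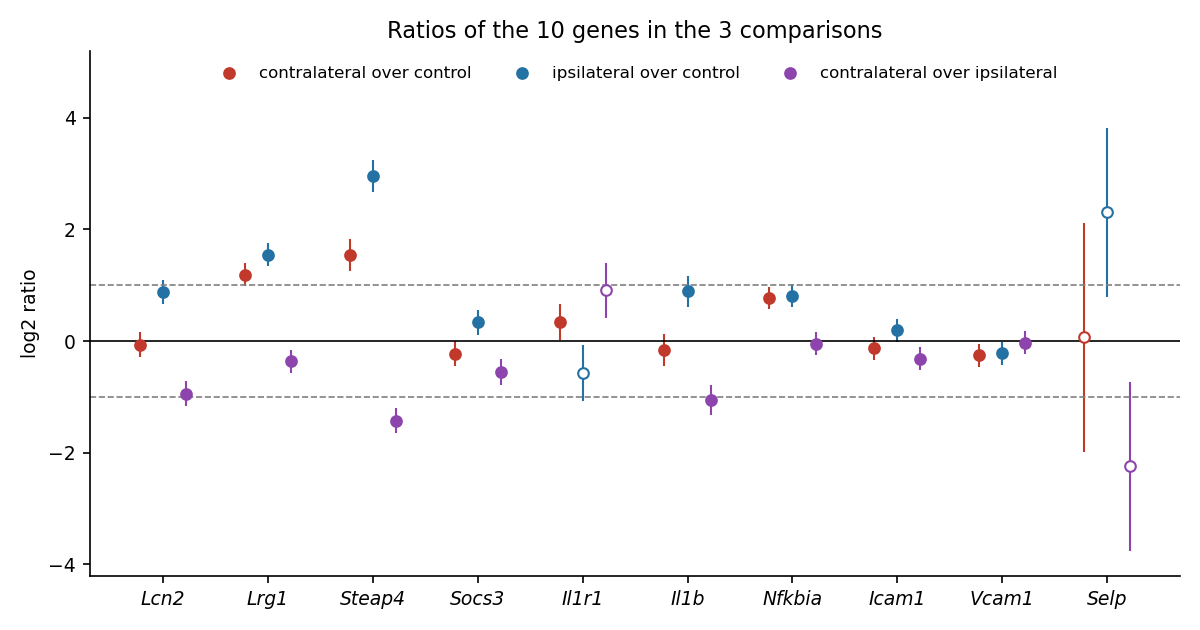
The vertical axis is the log2 ratio of each of the 10 genes for contralateral over control (red), ipsilateral over control (blue) and contralateral over ipsilateral (purple), with bars for the scanner error, dashed lines at the threshold and open points where a spot was not well above background. Lrg1 and Steap4 stand beyond the threshold on both sides, and the ratio of Steap4 is 1.54 contralateral and 2.96 ipsilateral.

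For contralateral over control, 2 of the 10 genes were higher beyond the threshold, Lrg1 and Steap4, and 0 were lower, where 4.7% of all genes were higher and 6.48% lower. Among fully measured genes these shares were 1.41% and 0.856%. For ipsilateral over control, 3 were higher and 0 lower, against 13.4% and 3.14% of all genes, or 3.1% and 0.801% of the fully measured. The 3 were Lrg1, Steap4 and Selp, and Selp counts there only by a spot within background. For contralateral over ipsilateral, 0 were higher and 3 lower (Steap4, Il1b and Selp), against 1.85% and 13.4% of all genes, or 0.217% and 1.54% of the fully measured. Because results known beforehand chose the 10 genes, nothing is read from these counts.

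Of the 8 fully measured genes, 3 were above control by more than the scanner error on the contralateral side (Lrg1, Steap4 and Nfkbia), 1 was below it (Vcam1) and 4 were within it, where 15.6% of all fully measured genes were above by more than their own scanner error and 17.1% below. On the ipsilateral side 6 were above (Lcn2, Lrg1, Steap4, Socs3, Il1b and Nfkbia), 1 was below (Vcam1) and 1 was within (Icam1), against 21.8% above and 14.9% below. Without scaling, Socs3 was -0.20 and Icam1 -0.34 there. Contralateral over ipsilateral, 6 were below 0 by more than the scanner error (Lcn2, Lrg1, Steap4, Socs3, Il1b and Icam1), of which Lrg1 and Icam1 were 0.02 and 0.06 without scaling, and Nfkbia and Vcam1 were within it, against 6.53% above and 16.2% below. Nothing is read from these counts either, since the choice of the 10 genes used the same ratios. The median ratio of the 10 genes was 0.00 on the contralateral side (-0.15 without scaling and 0.05 under normexp), where the median of all genes was 0.04, and 0.85 on the ipsilateral side (0.31 without scaling, 0.28 with 50 added), where it was 0.13. Contralateral over ipsilateral, the medians were -0.46 (-0.08 without scaling, -0.28 with 50 added) and -0.11. Both ratios to control use the same control array, so they are not separate observations of the control.

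Scaling moved all genes on the ipsilateral array together. The median ratio of all genes for ipsilateral over control, 0.13 in the main processing, was -0.40 without scaling, -0.12 with scaling to spike-in probes, -0.01 with quantile normalization and 0.34 with normexp. Measured from that median, Lrg1 stayed between 1.11 and 1.57 on the ipsilateral side and between 0.98 and 1.19 on the contralateral side over 12 alternatives, and Steap4 between 1.14 and 2.93 and between 0.50 and 1.58. Nfkbia stayed between 0.47 and 0.83 and between 0.68 and 0.77. The share of higher genes among all genes beyond the threshold was 81.0% for ipsilateral over control, but 43.9% without scaling. It was 67.1% with scaling to spike-in probes, 63.1% with cyclic loess and 54.1% with quantile normalization. For contralateral over control it was 42.1%, against 31.3% without scaling, 58.5% with normexp and 62.3% among fully measured genes. For contralateral over ipsilateral it was 12.2%, and 29.0% without scaling, 46.1% with quantile normalization, 27.2% with cyclic loess and 42.2% with 50 added. For ipsilateral over control it was 64.1% with 50 added.

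**Figure D3:**
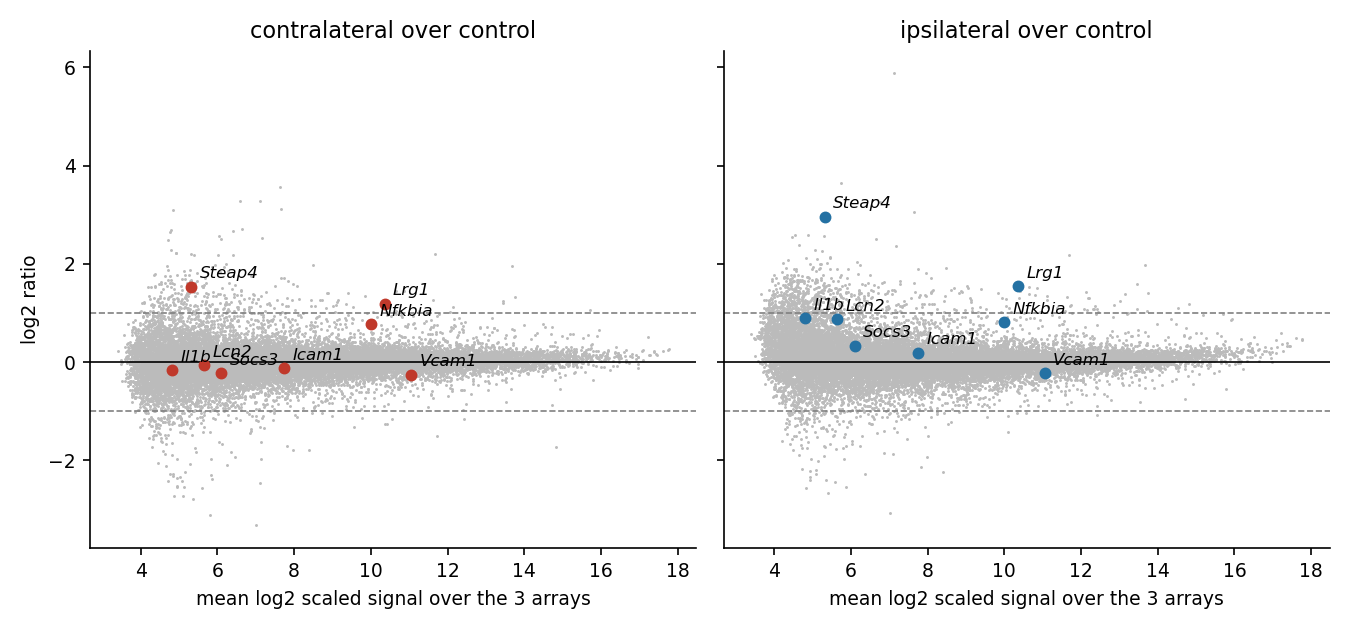
Each grey point is 1 of 22090 fully measured genes, with its mean log2 scaled signal on the horizontal axis and its log2 ratio on the vertical axis, for contralateral over control (left) and ipsilateral over control (right). Coloured points are the 8 fully measured genes of the 10, dashed lines mark the threshold, and the cloud is wider for dim genes on the left than for bright ones such as Lrg1, which lies at 1.19 and 1.55.

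Other genes of the same pathways were taken from 6 lists of 116 genes, of which 109 had a probe and 78 were fully measured. Of these 78, 0 were beyond the threshold in any of the 3 comparisons, where the shares of all fully measured genes were 1.41% higher and 0.856% lower for contralateral over control, 3.1% and 0.801% for ipsilateral over control, and 0.217% and 1.54% for contralateral over ipsilateral. List medians are given over all genes with a probe, dim ones included, and then over the fully measured genes alone.

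Acute phase proteins and their transcription factors, 22 genes with 12 fully measured, had a median ratio of 0.08 contralateral and 0.42 ipsilateral, which without scaling were -0.07 and -0.12. Over the fully measured genes the medians were 0.21 and 0.31. Cebpd, a C/EBP factor induced in acute inflammation, was 10.46, 10.60 and 9.72, with ratios to control of 0.75 ± 0.20 and 0.89 ± 0.20. The copper carrier ceruloplasmin (Cp) was 8.96, 9.33 and 8.42, with ratios of 0.54 ± 0.20 and 0.91 ± 0.20. Hamp, which encodes the iron hormone hepcidin, had the lowest ratios among the fully measured genes, -0.59 ± 0.30 contralateral and -0.40 ± 0.33 ipsilateral. Lbp, which carries bacterial lipopolysaccharide to CD14, read 5.22 and 6.36 on the MCAO arrays and was not well above background in control, at 3.26. Set against that control spot, its ratio was 1.95 ± 0.41 (3.87-fold) contralateral and 3.10 ± 0.41 (8.55-fold) ipsilateral. These are not minimum folds, since the scanner error is not taken off. Lbp was singled out after its value was seen. Serpina3n, Hpx, Orm1, Apcs and Fgg were not well above background on any array.

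The interleukin 1 and TNF list held 20 genes, 14 of them fully measured, with medians of -0.06 and 0.12 on the contralateral and ipsilateral side, and of -0.07 and -0.02 over the fully measured genes, so that the ipsilateral sign turned. Its highest ratios among these were those of Il33, a nuclear alarmin of glia, at 11.77 and 11.77 against 11.20 in control, or 0.57 ± 0.20 on both sides. The lowest among these were those of Il1a, -0.37 ± 0.29 and -0.48 ± 0.34. Il1rl1, the receptor for the Il33 product, was not well above background on any array.

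The NF-kB list of subunits, kinases and inhibitors had 12 genes with a probe, 11 of them fully measured, with medians of -0.01 and 0.10, and of 0.00 and 0.05 over the fully measured genes. Its largest contralateral ratio was that of Nfkb2, the p100 subunit, at 0.20 ± 0.21, and the largest ipsilateral ratio that of Birc3, an inhibitor of apoptosis, at 0.84 ± 0.32. Chuk, the kinase IKK alpha, had the lowest on both sides, at -0.39 ± 0.21 and -0.53 ± 0.22. Relb, Rel, Nfkbiz, Nfkbid, Tnfaip3 and Tnip2 had no probe matched by accession and were not analysed here. The gp130 and STAT3 list held 20 genes, 14 of them fully measured, with medians of -0.02 and 0.04, and of -0.02 and 0.06 over the fully measured genes. Lif, a cytokine of the interleukin 6 family, was the highest of the fully measured genes on both sides, at 0.41 ± 0.22 and 0.74 ± 0.22. The lowest fully measured gene on the contralateral side was the kinase gene Tyk2, at -0.30 ± 0.21. On the ipsilateral side the lowest was the STAT3 inhibitor gene Pias3, at -0.28 ± 0.22. Il6 and the oncostatin M receptor gene Osmr were not well above background on any array. Without scaling, the ipsilateral medians of the interleukin 1, NF-kB and gp130 lists were -0.42, -0.43 and -0.49, beside -0.40 for all genes. Their contralateral medians, just below 0, reached 0.05 under normexp, 0.04 with quantile normalization and 0.08 under normexp in the same order.

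Endothelial adhesion molecules other than the 10 genes, listed with the leukocyte proteins that bind them, gave 19 genes with a probe, 13 of them fully measured. Their medians were -0.24 and -0.10, which under normexp were 0.00 and 0.30, and over the fully measured genes -0.15 and -0.10. Mcam, an adhesion molecule of vessel walls, had the lowest ratios, at 8.65 and 8.44 against 9.32 in control, or -0.67 ± 0.20 and -0.88 ± 0.20. Itgam, the CD11b chain of a leukocyte integrin that binds ICAM1, had the highest, at 0.21 ± 0.22 and 0.54 ± 0.23. Itgal was not well above background on any array, and Selplg had no probe matched. The list of STEAP relatives, lipocalin 2 and LRG1 receptors and iron genes held 16 genes, 14 of them fully measured, with medians of -0.14 and -0.06, which under normexp were -0.07 and 0.05, and over the fully measured genes -0.12 and -0.02. Fth1, the ferritin heavy chain, had the highest contralateral ratio, at 0.31 ± 0.20, and Tgfb1 the highest ipsilateral one, at 0.78 ± 0.25. Of the fully measured genes, Bmp4 had the lowest ratio on both sides, at -0.58 ± 0.21 and -0.49 ± 0.21. Of the other STEAP genes, named here for their family, Steap1 and Steap2 had ipsilateral ratios of 0.41 ± 0.21 and 0.27 ± 0.20 and contralateral ratios of -0.06 ± 0.21 and 0.25 ± 0.20. Steap3 was not well above background on the ipsilateral array.

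**Figure D4:**
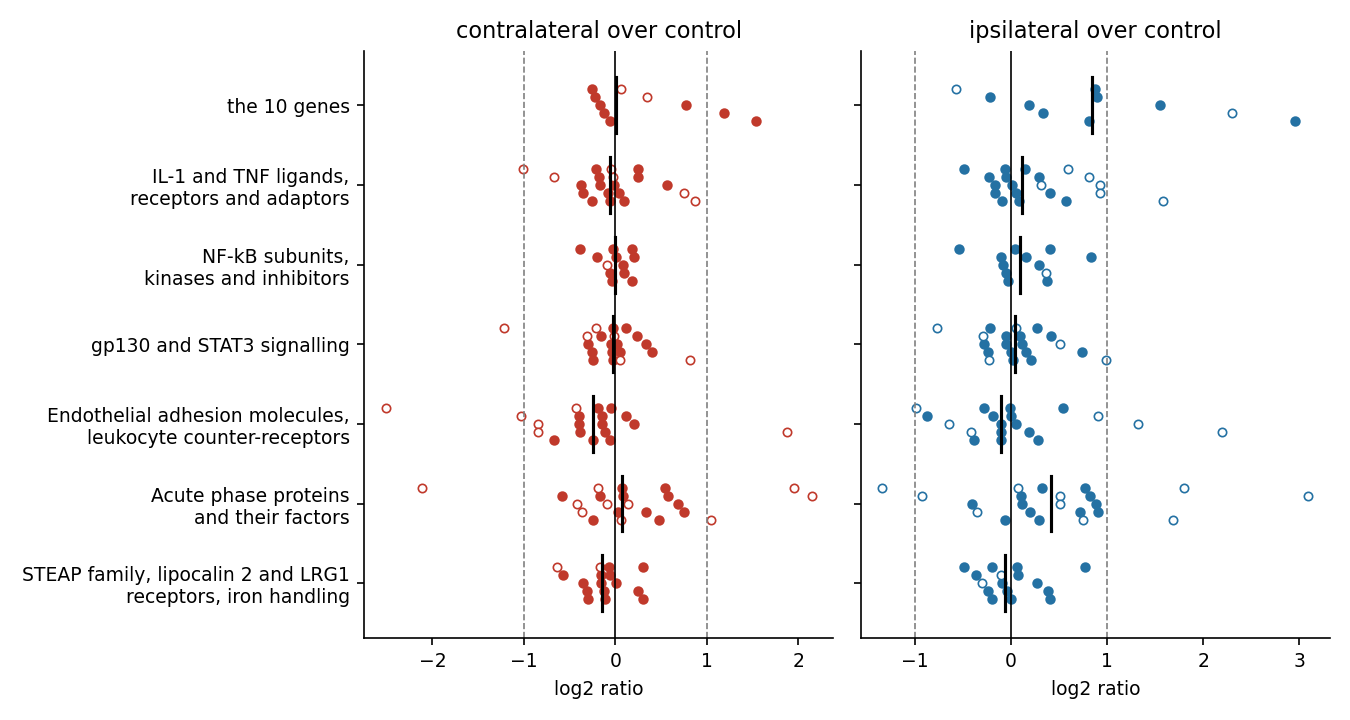
The horizontal axis is the log2 ratio for contralateral over control (left) and ipsilateral over control (right), with a point for each gene of the 6 pathway lists and of the 10 genes in the top row, and a black bar at each median. Filled points are fully measured genes, dashed lines mark the threshold, and beyond it lie filled points of the top row only, those of Lrg1 and Steap4.

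In pooled tissue, fewer cells of a type and less RNA per cell cannot be told apart, so markers of cell types were set beside the 10 genes as the summed scaled signal of each list. The gene named as brightest in a list has the highest log2 level averaged over the 3 arrays, not on each of them, which depends on its probe and is no rank of abundance. Lcn2 and Il1b are expressed by neutrophils, and the neutrophil list had 2 of 9 genes fully measured, with sums of 120, 161 and 113. Its brightest gene, S100a9, was 5.65, 6.10 and 5.07, with ratios to control of 0.58 ± 0.23 and 1.04 ± 0.23. S100a8, the other fully measured gene, had ratios of 0.16 ± 0.24 and -0.19 ± 0.27. Csf3r and Camp, well above background on the ipsilateral and control arrays only, had ipsilateral ratios of 1.56 ± 0.35 and -0.13 ± 0.40. The list's median ratio was -0.38 contralateral, with 5 of 9 genes below 0, and 0.08 ipsilateral, with 4 of 9 below 0. Both signs turned with the processing, the contralateral median being 0.37 over fully measured genes and the ipsilateral one -0.45 without scaling. Elane, Mmp8, Mmp9, Ngp and Cxcr2 were not well above background on any array, and Mpo had no probe matched. Monocyte and macrophage markers, 5 of 7 fully measured, summed to 1486, 2112 and 1352, mostly through Lyz2, the brightest. Lyz2 had ratios to control of 0.13 ± 0.20 and 0.69 ± 0.20, and Cd68 of 0.18 ± 0.21 and 0.56 ± 0.21. Ccr2 was not well above background on any array. In that list Cd163, a scavenger receptor of macrophages, was 6.02, 6.39 and 4.50, with ratios to control of 1.52 ± 0.24 and 1.89 ± 0.24, and it was singled out after its values were seen. The list's median ratio was 0.00 contralateral and 0.56 ipsilateral (0.02 without scaling). Ptprc had ratios of -0.23 ± 0.23 and 0.22 ± 0.23 and Lyve1 of -0.11 ± 0.21 and -0.04 ± 0.21, while Mrc1 was well above background in control alone. Of microglial genes, Cx3cr1, the fractalkine receptor gene, also singled out after its values were seen, was 11.20, 11.69 and 10.42, with ratios of 0.78 ± 0.20 and 1.27 ± 0.20. P2ry12, Tmem119, Aif1, Csf1r and Trem2, also microglial, had ratios from -0.29 to 0.28 contralateral and from -0.10 to 0.08 ipsilateral. T cell markers, 2 of 7 fully measured and Cd3d the brightest, summed to 197, 236 and 229, with Cd3e, Cd2 and Lck not well above background on any array. The part of these cells in the ratios of the 10 genes was not tested.

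Vessel markers bear on Icam1, Vcam1, Lrg1 and Selp, which endothelium expresses. The 10 endothelial genes were all fully measured, Slco1c1 the brightest, and summed to 7076, 7197 and 8856, with median ratios to control of -0.24 and -0.18. Pericyte and mural cell genes, 7 of 8 fully measured and Cspg4 the brightest, summed to 3246, 3378 and 3606. In both lists the control array had the highest sum, as it had the highest level of Vcam1, whereas for Lrg1 control was the lowest. The endothelial list was split. For contralateral over control, 3 of its genes were above 0 and 7 below, and for ipsilateral over control 4 were above and 6 below. All 8 pericyte and mural cell genes were below 0 in both comparisons. The part of vessel cells in the ratios of Icam1, Vcam1, Lrg1 and Selp was not tested. Red blood cell genes, 3 of 7 fully measured and Hba-a1 the brightest, summed to 1193, 1090 and 2219, with Hemgn not well above background on any array.

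Marker signals of choroid plexus and leptomeninges, which lie beside the cortex, also differed between the arrays. Choroid plexus genes, 8 of 10 fully measured, summed to 10914, 76941 and 34214, mostly through Ttr, the brightest, at 13.28, 16.20 and 15.01. Not all genes of the list had the order of Ttr: Slc4a5, singled out after its values were seen, was 3.66, 4.57 and 5.78, with an ipsilateral ratio to control of -1.20 ± 0.26, and Clic6, at 3.70, 3.94 and 4.25, was also highest in control. The order of Ttr, ipsilateral highest, then control, then contralateral, was also the order of Lcn2, Il1b, Socs3 and Icam1, although in each of these the contralateral and control arrays did not differ beyond the scanner error, nor did the ipsilateral and control arrays for Icam1. Without scaling, Socs3 and Icam1 were highest in control, at ipsilateral ratios of -0.20 and -0.34. For Lrg1, Steap4 and Nfkbia control was the lowest. Leptomeningeal genes, 10 of 10 fully measured and Col1a2 the brightest, summed to 8971, 11852 and 15347, with control the highest as for Vcam1. The part of choroid plexus and meninges in the ratios of the 10 genes was not tested.

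Markers of the granule cells, Purkinje cells and Bergmann glia of the cerebellar cortex were well above background on each array. Granule cell genes, 8 of 8 fully measured and Cbln1 the brightest, summed to 89931, 88748 and 90340. Purkinje cell genes, 8 of 8 and Itpr1 the brightest, summed to 216453, 215369 and 196318. Bergmann glia and astrocyte genes, 8 of 8 and Aqp4 the brightest, summed to 76831, 77319 and 85014. Aqp4 weighs most in that sum and had ratios to control of -0.55 ± 0.20 and -0.45 ± 0.20. The list's median ratio was -0.04 contralateral, with 4 of 8 genes above 0, and -0.12 ipsilateral, with 3 of 8 above 0.

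**Figure D5:**
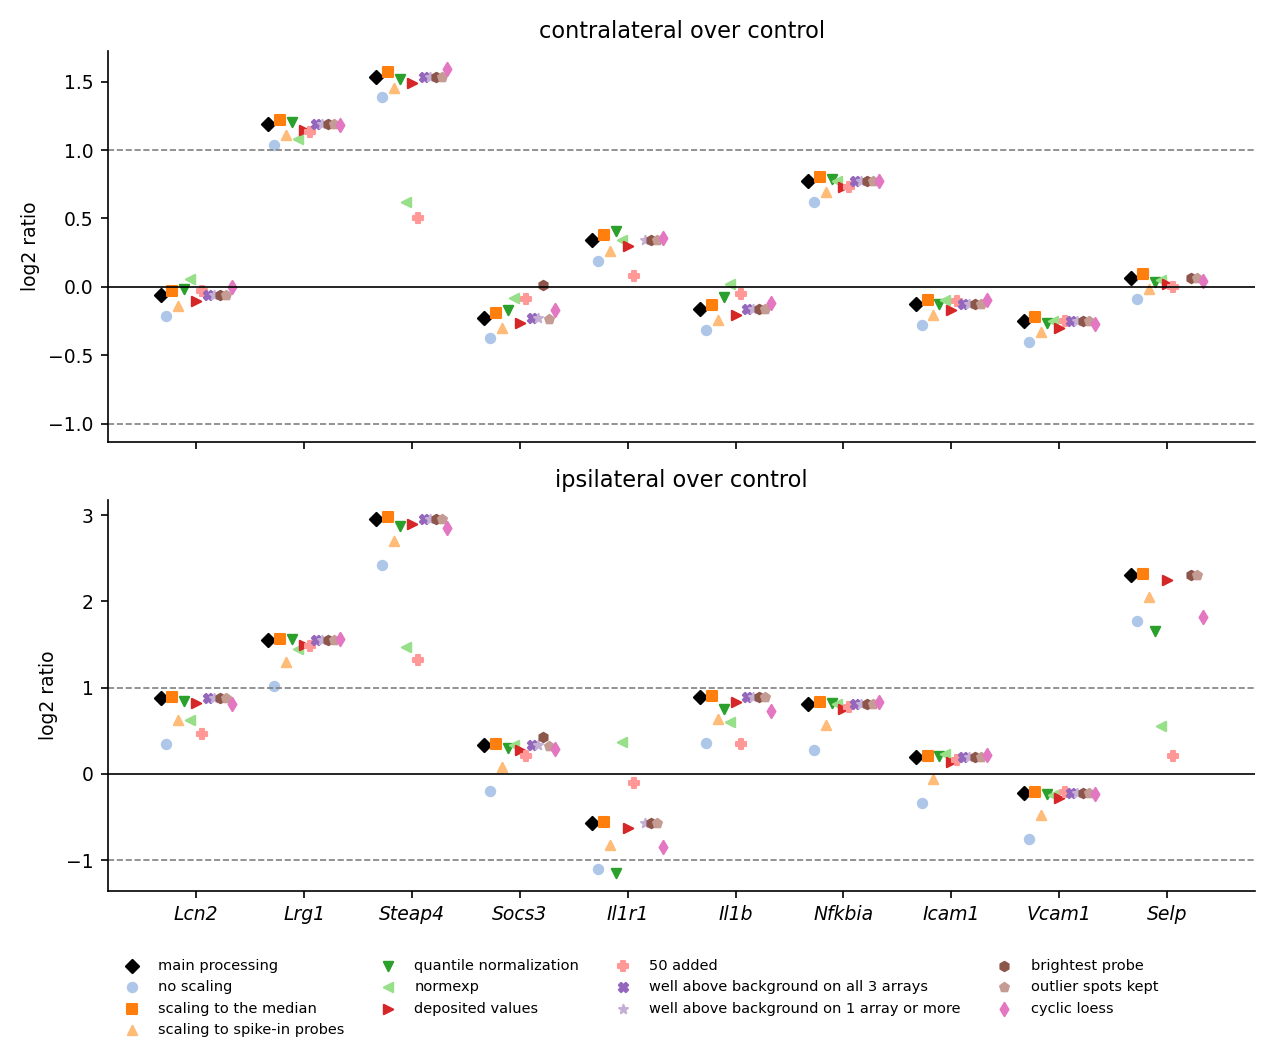
The vertical axis is the log2 ratio of each of the 10 genes for contralateral over control (top) and ipsilateral over control (bottom), with a black diamond for the main processing and 1 symbol for each of 12 alternatives, or 11 for Il1r1 and 10 for Selp, which filters on background leave out. Lrg1 lies above the threshold on both sides under all of them, with its lowest values, 1.04 and 1.02, without scaling, whereas Steap4 falls to 0.50 on the contralateral side with 50 added.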

How the data were processed

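RNA of cerebellar cortex was hybridised to 3 one-colour rat arrays, 1 a group, on 1 slide read in 1 scan. Per the file headers, the deposited scanner files hold spot intensities extracted with Agilent Feature Extraction 12.1.0.3, and its processed signal, already background-subtracted, was used. Control spots were not used for gene levels in the main processing, nor were 759 spots that the software marked as outliers on an array. Log2 signals were scaled to each array's 75th percentile, then averaged over spots and probes. Of 39957 accessions, 17622 matched a RefSeq symbol (GRCr8), and the rest kept their accession. The authors' value table has medians of 139.4, 139.64 and 146.89 and equals the processed signal times a factor per array (1.12, 1.45 and 1.04). The methods mention normalization to each chip's control samples, and how the factors were chosen is not stated.

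The comparisons were log2 ratios with no test, since 1 array a group leaves no replicates. No paired analysis was possible because both MCAO pools are single arrays. The 10 genes, 6 pathway lists and 13 marker lists were chosen with earlier results of these data known. The full results of 2 marker lists, and counts over pathway genes that were not fully measured, are not reported here. Named by rule were the 10 genes, fully measured pathway genes past the threshold (none) or at their list's extremes, each marker list's brightest and undetected genes, and 3 nearest genes of each fully measured gene past the threshold. Other genes named, such as Lbp, Steap1 to Steap3, Slc4a5, Clic6, further leukocyte and microglial markers and undetected pathway genes, fall outside the rule and were chosen after their values were seen. Python 3.11.15 with pandas 2.3.3, numpy 2.4.6 and matplotlib 3.10.9, and R 4.3.3 with limma 3.58.1 (normexp, quantile, cyclic loess) were used. Normexp took median spot signals, as the files hold no mean. Of 12 alternatives, 11 were set at the start, and cyclic loess was added after seeing the data.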

Additional observations from a re-analysis of the deposited data

How the results depend on the processing

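Over 12 alternatives, Lrg1 stayed above the threshold on both sides and Steap4 on the ipsilateral side. For contralateral over control, the number of the 10 genes higher beyond the threshold was 2, and 1 under normexp and with 50 added, where Steap4 dropped inside it. Adding 50 shrinks the ratios of dim signals by construction. Normexp also changed the input to median spot signals. For ipsilateral over control, the number higher was 3, and 2 under normexp, with 50 added and under both filters on background (each array, or at least 1). The number lower was 0, and 1 without scaling and with quantile normalization (Il1r1, not well above background on the ipsilateral array). For contralateral over ipsilateral, the number higher was 0, and 1 without scaling, with spike-in scaling, with quantile normalization and with cyclic loess (Il1r1 again), and the number lower was 3. It was 0 under normexp and with 50 added, and 2 without scaling, with spike-in scaling, with quantile normalization, with cyclic loess and under both filters on background. The median of the 10 genes for ipsilateral over control was 0.848, and 0.314 without scaling, 0.595 with spike-in scaling, 0.582 under normexp and 0.28 with 50 added. For contralateral over ipsilateral it was -0.459, and -0.077 without scaling. Apart from the shrinking with 50 added, the cause was not tested.

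Counts over all genes were lower by far under normexp and with 50 added. Genes higher and lower for contralateral over control were 1833 and 2526, and 72 and 51 under normexp, and 89 and 93 with 50 added. For ipsilateral over control they were 5217 and 1223, and 167 and 24, and 143 and 80. For contralateral over ipsilateral they were 722 and 5217, and 7 and 39, and 43 and 59. Signal over background leaves no fold for Selp and only a bound for Il1r1 on the ipsilateral array, and Lcn2, Steap4 and Il1b were dim, and a single array a group leaves the spread between rats unknown.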
